A study of Mus musculus with 6 samples.

Results

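Phosphodiesterase 3B (Pde3b) and the other phosphodiesterases that break down cyclic AMP were followed in melan-a cells, an immortalized melanocyte line from C57BL/6J mice. The rule named 10 symbols (Pde3a, Pde3b, Pde4a, Pde4b, Pde4c, Pde4d, Pde7a, Pde7b, Pde8a and Pde8b), and the platform's probe annotation gave 9 of them 1 probe set each, out of 19505 genes named on the array. Pde4d was not analysed here. Pde3b was picked because its values were much higher in both Kit-labelled lines than in the control line, so its differences from the control are a description with no test, while the remaining 8 genes were taken as members of the same enzyme families. RNA was measured on Affymetrix Clariom S arrays in 3 groups of 2 arrays. They were melan-a cells with c-kit carrying the K641E substitution in a line labelled mKitK641E(T), called T here, a line labelled mKitK641E(PT), called PT here, and control-vector cells labelled mVec. The sample titles add C3# for T, hi exp for PT and CD516B2 for mVec. The descriptions call the cells of both Kit-labelled lines transformed melanoma and those of mVec transduced melanocytes. No label spells out T, PT, C3# or hi exp. All cells grew in RPMI with serum and no added agent. Each group is a single line, and the titles do not say whether its 2 arrays came from separate cultures, so the p-values below measure the spread between these arrays.

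Cyclic AMP (cAMP) is made by adenylyl cyclases under the control of stimulatory and inhibitory G proteins and is removed by phosphodiesterases. It acts through protein kinase A, through the exchange factors EPAC1 and EPAC2, and through transcription factors of the CREB family. Melanocytes are known for their use of this pathway: the hormone alpha-MSH raises cAMP through its receptor Mc1r, and cAMP in turn raises Mitf, the regulator of the pigment genes. The enzymes of the Pde3 family cut both cAMP and cGMP and are slowed by cGMP, whereas those of the Pde4, Pde7 and Pde8 families are specific for cAMP. PDE3B is best known from fat cells, liver and the insulin-producing cells of the pancreas, where insulin signalling through PI3K and AKT activates it.

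Levels are log2 expression values as deposited. A probe set was taken as above background on an array where it exceeded that array's own 95th percentile over 5222 negative controls, a limit between 8.74 and 9.16. Between 6433 and 7240 of 22206 gene probe sets (29.0% to 32.6%) passed it. The mouse Kit probe set was at background on all 6 arrays, with 4.53 and 5.18 on T arrays, 4.53 and 3.84 on PT arrays, and 4.68 and 4.97 on mVec arrays, so it was no higher in either line labelled with c-kit, including the one titled hi exp (limma adjusted p = 0.956 for T minus mVec and 0.141 for PT minus mVec). The labels do not say whether the introduced c-kit is the mouse gene, and whether this probe set detects it was not tested. The names T, PT and Kit-labelled below therefore follow the labels alone. Of 14 melanocyte markers, 3 were above background on both T arrays, 2 on both PT arrays and 2 on both mVec arrays; they were Pax3 and Gpnmb, joined by Mitf in T. Tyr, Tyrp1, Dct, Pmel, Mlana, Sox10 and Slc45a2 were at background in all 3 groups, so the melanocyte label rests on few of its defining genes. Called lower in each Kit-labelled line were 3 of the 14 markers, and 1, Mitf, was called higher. Pax3 differed from mVec by -1.90 in T and -1.32 in PT, and Gpnmb by -1.45 in T and -2.42 in PT. Slc24a5, the third one called lower, differed by -3.43 in T and -3.25 in PT, at background on all 6 arrays. The Mitf difference was 1.03 in T and 0.84 in PT. Of 8 measured fibroblast markers, 2 were above background on both T arrays, 0 on both PT arrays and 5 on both mVec arrays. The summed log2 level of the fibroblast list was 52.7 to 53.2 in T, 47.0 to 48.5 in PT and 90.1 to 90.2 in mVec. In each Kit-labelled line 6 of the 8 (75%) were called lower and 1 (12.5%), Col1a2, was called higher (by 4.16 in T and 4.15 in PT), while Thy1 was not called (0.04 in T and 0.05 in PT). Over all probe sets, 16.9% were called higher and 15.5% lower in T, and 17.9% higher and 18% lower in PT. The counts of both marker lists stand beside these shares. Lum, called lower, was at background on all 6 arrays. Col1a2 was at background on both mVec arrays, with 5.06 and 5.08, and above its limit on 1 of the 2 PT arrays. Its level was therefore only at least 1.17-fold above the mVec background limit in T and in PT. The part of the fibroblast genes in the results below was not tested. In bulk RNA, fewer cells of a type and less RNA per cell cannot be told apart.

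Of the 9 measured genes, 4 were above background on at least 1 array (Pde3b, Pde4b, Pde7a and Pde8a). The other 5 (Pde3a, Pde4a, Pde4c, Pde7b and Pde8b) were at background on all 6 arrays. Both T arrays and both PT arrays held 4 genes above background, and both mVec arrays held 2, Pde4b and Pde8a. Pde7a was above its limit on 1 of the 2 mVec arrays.

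**Figure D1:**
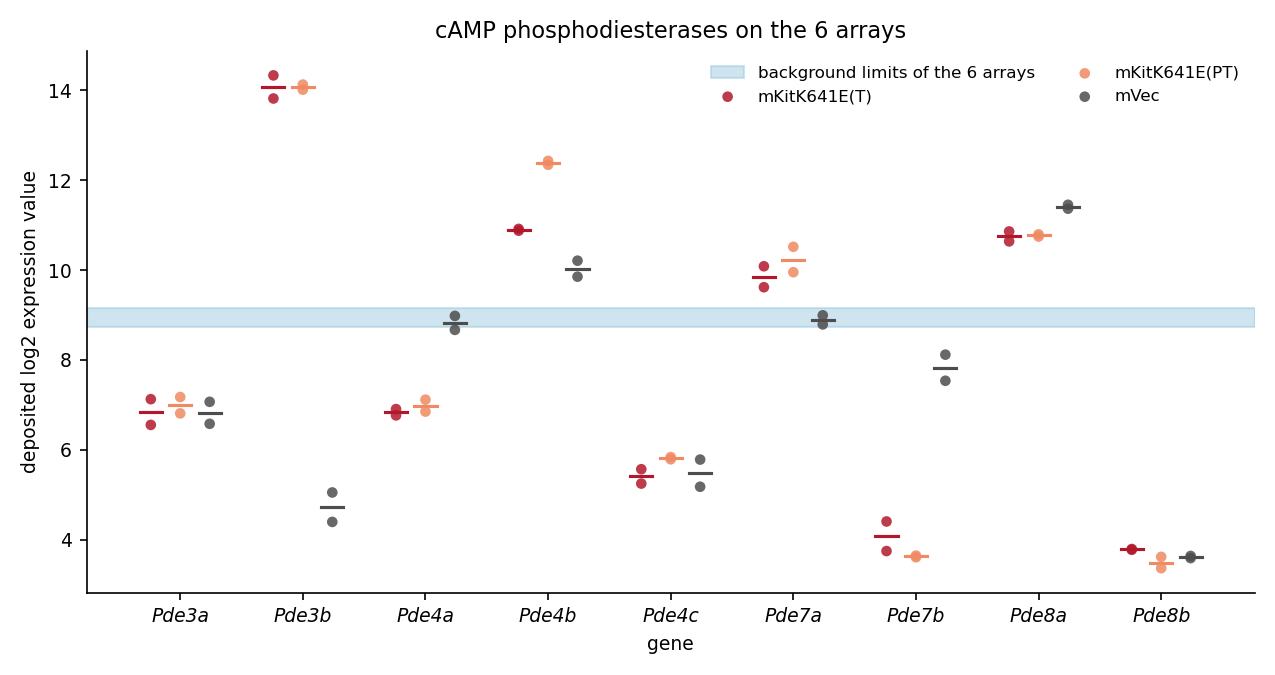
Log2 expression value of the 9 measured cAMP phosphodiesterase genes on each array; points are arrays (2 each for T, PT and mVec, left to right within a gene), short bars are group means and the band spans the background limits of the 6 arrays (8.74 to 9.16). Pde3b lies at 13.82 to 14.33 on the 4 Kit-labelled arrays and at 4.40 and 5.05 on the mVec arrays. Among the genes above background, Pde4b is the one whose PT arrays stand above its T arrays and mVec arrays.

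Pde3b had 14.33 and 13.82 on T arrays and 14.13 and 14.01 on PT arrays, against 4.40 and 5.05 on mVec arrays. All 4 Kit-labelled arrays were high, both mVec arrays were far below the background limit, and the groups did not overlap. The lowest T array stood 8.77 log2 units above the highest mVec array, and the lowest PT array stood 8.96 above it. Group means were 14.08 ± 0.36 in T, 14.07 ± 0.08 in PT and 4.72 ± 0.46 in mVec (SD, n = 2 arrays each). The log2 difference was 9.35 ± 0.27 for T minus mVec and 9.35 ± 0.27 for PT minus mVec (SE). Since mVec was at background, the linear ratio is only bounded: the T level of Pde3b was at least 33.7-fold above the mVec background limit and the PT level at least 33.6-fold above it. These 2 comparisons share the mVec arrays and are the ones Pde3b was selected on.

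By the difference of the deposited values, Pde3b had the highest one among 22206 gene probe sets in both comparisons, but this order rests on mVec values below the background limit. In T minus mVec the genes that followed were Bcat1, the cytosolic branched-chain amino acid transaminase (8.24), Crabp2, a retinoic acid binding protein (7.86), and Phlda2 (7.86). In PT minus mVec they were Gprc5a, an orphan receptor induced by retinoic acid (8.63), Tnfrsf10b, the mouse death receptor for TRAIL (8.59), and Phlda2 (8.54). Against the mVec background limit the order was another: Bcat1 was at least 47.4-fold above it in T and at least 52.9-fold above it in PT, and Foxr2, a forkhead factor, at least 34.6-fold above it in PT, each beyond the bound of Pde3b. Bounds do not rank genes either, so the place of Pde3b among them is not settled by these arrays.

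The difference between the Kit-labelled lines was not used in the choice of Pde3b and was tested. T minus PT was 0.00 ± 0.27 on the log2 scale (SE), with a 95% interval of -0.61 to 0.62 and an adjusted p of 0.995 in limma's moderated test, Benjamini-Hochberg adjusted over all probe sets. The T and PT arrays overlapped, with the highest and the lowest Kit-labelled values both in T. Differences within that interval could not be told from 0 with 2 arrays a line.

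Pde4b, a cAMP-specific enzyme of the family inhibited by rolipram, had 10.92 and 10.88 on T arrays, 12.43 and 12.34 on PT arrays, and 10.21 and 9.85 on mVec arrays. The PT arrays were highest, the T arrays lay between, and no 2 groups overlapped. Pde4b rose in PT by 2.35 ± 0.21 log2 units over mVec (SE, 5.12-fold, limma adjusted p = 1.31e-05). It was higher by 0.87 ± 0.21 in T than in mVec (1.82-fold, limma adjusted p = 0.0103), a call that was lost without mVec replicate 2 (difference 0.69, limma adjusted p = 0.106). The Kit-labelled lines differed from each other: T minus PT was -1.49 ± 0.21 (2.81-fold lower in T, 95% interval -1.97 to -1.01, limma adjusted p = 0.00407), and this call held in each of the 13 alternatives.

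Pde7a, a cAMP-specific enzyme known for its high affinity and its expression in T cells, had 10.09 and 9.62 on T arrays, 9.95 and 10.52 on PT arrays, and 8.79 and 8.99 on mVec arrays. Both Kit-labelled lines stood above mVec without overlap, and they overlapped each other. The rise in PT over mVec was 1.34 ± 0.26 (SE, 2.54-fold, limma adjusted p = 0.0024). In T it was 0.96 ± 0.26 (1.94-fold, limma adjusted p = 0.018), and that call was lost without T replicate 1 (0.73, limma adjusted p = 0.106), without mVec replicate 1 (0.86, limma adjusted p = 0.112) and without mVec replicate 2 (1.06, limma adjusted p = 0.0513). T minus PT was -0.38 ± 0.26 with an interval of -0.97 to 0.21 (limma adjusted p = 0.441).

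Pde8a, a high-affinity cAMP-specific enzyme that the general inhibitor IBMX does not block, had 10.64 and 10.86 on T arrays, 10.75 and 10.80 on PT arrays, and 11.45 and 11.37 on mVec arrays. It fell in both Kit-labelled lines, by 0.66 ± 0.20 log2 units in T (SE, 1.58-fold lower, limma adjusted p = 0.0311) and by 0.64 ± 0.20 in PT (1.56-fold lower, limma adjusted p = 0.0327). These were the smallest called differences among the 9 genes and the least stable. The T call was lost with each array centred on its median (difference -0.48, limma adjusted p = 0.119), without T replicate 1 (-0.55, limma adjusted p = 0.117), without mVec replicate 1 (-0.62, limma adjusted p = 0.16) and without mVec replicate 2 (-0.70, limma adjusted p = 0.106). The PT call was lost with that centring (-0.45, limma adjusted p = 0.123) and without any of the 4 arrays compared. Those 4 values ran from -0.59 without mVec replicate 1 (limma adjusted p = 0.164) and -0.61 without PT replicate 1 (limma adjusted p = 0.118) to -0.66 without PT replicate 2 (limma adjusted p = 0.0891) and -0.68 without mVec replicate 2 (limma adjusted p = 0.106). T minus PT was -0.02 ± 0.20 with an interval of -0.48 to 0.43.

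Pde7b and Pde4a carried called differences below the background limit. Pde7b, the second gene of the Pde7 family, had 3.75 and 4.41 on T arrays, 3.61 and 3.65 on PT arrays, and 8.12 and 7.54 on mVec arrays. Its probe set was lower, with a log2 difference of -3.75 ± 0.28 in T and -4.20 ± 0.28 in PT (SE; limma adjusted p = 5.57e-06 in T and 1.88e-06 in PT). Pde4a, a rolipram-sensitive enzyme like Pde4b, had 6.77 and 6.91 on T arrays, 6.85 and 7.12 on PT arrays, and 8.98 and 8.67 on mVec arrays. Its probe set was lower, with a log2 difference of -1.99 ± 0.22 in T and -1.84 ± 0.22 in PT (SE; limma adjusted p = 6.9e-05 in T and 8.95e-05 in PT). In both genes the mVec arrays were the high ones and did not overlap the Kit-labelled arrays, but no array passed its limit, so no fold change is given.

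The remaining 3 genes, all at background, were not called in any comparison. Pde3a, the family partner of Pde3b known from heart, platelets and oocytes, ran from 6.56 to 7.13 in T, from 6.81 to 7.18 in PT and from 6.58 to 7.07 in mVec. T minus mVec was 0.02 ± 0.27 for Pde3a, with an interval of -0.60 to 0.63. Pde4c lay between 5.18 and 5.84 and Pde8b between 3.37 and 3.79 over the 6 arrays.

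Over the 8 genes other than Pde3b, T minus mVec gave 2 higher, 3 lower and 3 not called, where 16.9% of all probe sets were called higher and 15.5% lower. PT minus mVec likewise gave 2 higher, 3 lower and 3 not called, where 17.9% of all probe sets were called higher and 18% lower. The 2 genes called higher were Pde4b and Pde7a and the 3 called lower were Pde4a, Pde7b and Pde8a in both comparisons, which share the mVec arrays. The median difference of the 8 genes was -0.03 in T and 0.02 in PT, against 0.01 and 0.08 over all probe sets. In T minus PT, over 9 genes, 0 were called higher, 1 (Pde4b) lower and 8 not called, where 5.67% of all probe sets were called higher and 2.7% lower. The differences not called ran from -0.41 for Pde4c to 0.45 for Pde7b, the member median was -0.15 and that of all probe sets -0.04. Centring each array on its own median raised every T minus mVec value by 0.18 and every PT minus mVec value by 0.19. The share of all calls that were higher was then 62.3% in T and 60.3% in PT, against 52.3% in T and 49.9% in PT as deposited.

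**Figure D2:**
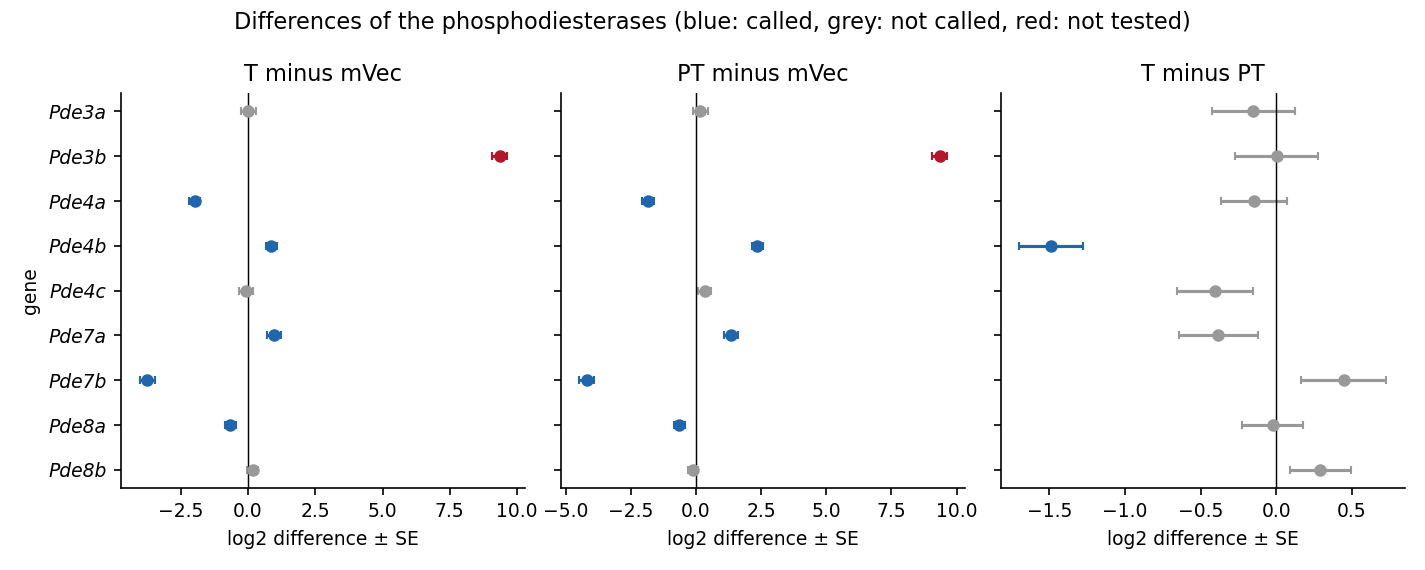
Log2 difference of each measured cAMP phosphodiesterase gene for each Kit-labelled line minus mVec and for T minus PT, as point ± SE from the fit, 1 panel a comparison with its own axis; blue points passed an adjusted p of 0.05 in limma's test, grey points did not, and red points (Pde3b against mVec) are a description with no test. Pde3b stands at 9.35 in both Kit-labelled lines, Pde4b at 0.87 in T and 2.35 in PT, and Pde7b at -3.75 in T and -4.20 in PT.

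RefSeq promoter windows were available for 6 of the genes, 15 windows in all on build GRCm38.p6. Pde3b, Pde3a and Pde7a had no window, so their promoters were not searched. The 250 bases before each start were searched on both strands for TGACG, the 5-base core of the cAMP response element bound by CREB, and for the full palindrome TGACGTCA, which contains the core on both strands. The core was present in 3 of the 15 windows, 1 each of Pde4a, Pde4b and Pde8a, and the full palindrome in 0. Of all 32851 RefSeq windows, 17.8% held the core and 1.55% the full palindrome. A match is a description of the letters, not evidence of binding. The stretches around the core are printed because they belong to genes whose values differed between the lines in different directions. They run 5′ to 3′ with the core or its reverse complement in capitals, for Pde4a at chr9:21184031-21184075, Pde4b at chr4:102421501-102421545 and Pde8a at chr7:81213161-81213205, all on the plus strand.
Pde4a: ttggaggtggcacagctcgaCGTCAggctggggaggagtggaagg
Pde4b: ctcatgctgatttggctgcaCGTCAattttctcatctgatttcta
Pde8a: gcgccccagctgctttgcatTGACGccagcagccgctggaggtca
The core began 50 bases before the start in this Pde4a window, 34 bases before it in Pde4b and 84 bases before it in Pde8a. Pde4a and Pde4b also had windows without a core, 2 of 3 for Pde4a and 3 of 4 for Pde4b, so its presence depends on which start is used, and the arrays do not say which start the lines use.

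The genes whose profile was most like that of Pde3b were found by the root mean square difference between their values and those of Pde3b over the 6 arrays, each gene centred on its own mean, among 19504 genes; the mVec values of Pde3b and of the 8 genes named next lie below the background limit. Bcat1 was closest (0.525 log2 units), followed by Phlda2 (0.638), Gprc5a (0.709), Foxr2 (0.729), Tnfrsf10b (0.979), Crabp2 (1.14), Cpne8, a calcium-dependent membrane-binding protein of the copine family (1.31), and the choline kinase Chka (1.32). The gene after these had 1.33, so the list has no sharp end. Bcat1 had 14.63 and 14.51 on T arrays, 14.73 and 14.73 on PT arrays, and 5.73 and 6.92 on mVec arrays. Foxr2 had 14.12 and 13.60 on T arrays, 14.20 and 14.03 on PT arrays, and 5.99 and 6.32 on mVec arrays. Like Pde3b, these 2 genes were high on all 4 Kit-labelled arrays and at background in mVec. Tnfrsf10b and Crabp2 shared the low mVec values but not the equal Kit-labelled lines: T minus PT was -1.54 for Tnfrsf10b (limma adjusted p = 0.00438) and 1.19 for Crabp2 (limma adjusted p = 0.0296). In the rest T minus PT was not called and ran from -0.89 for Gprc5a to 0.78 for Chka. Of the 8 genes, only Foxr2 had T and PT arrays that overlapped, as those of Pde3b did. Likeness over 6 arrays that fall into 3 groups is a loose description. Pearson's r with Pde3b was at least 0.99 in 289 of 9570 genes whose values spanned 1 log2 unit or more, and 1 of the 8 genes named here was among the 8 of highest r.

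**Figure D3:**
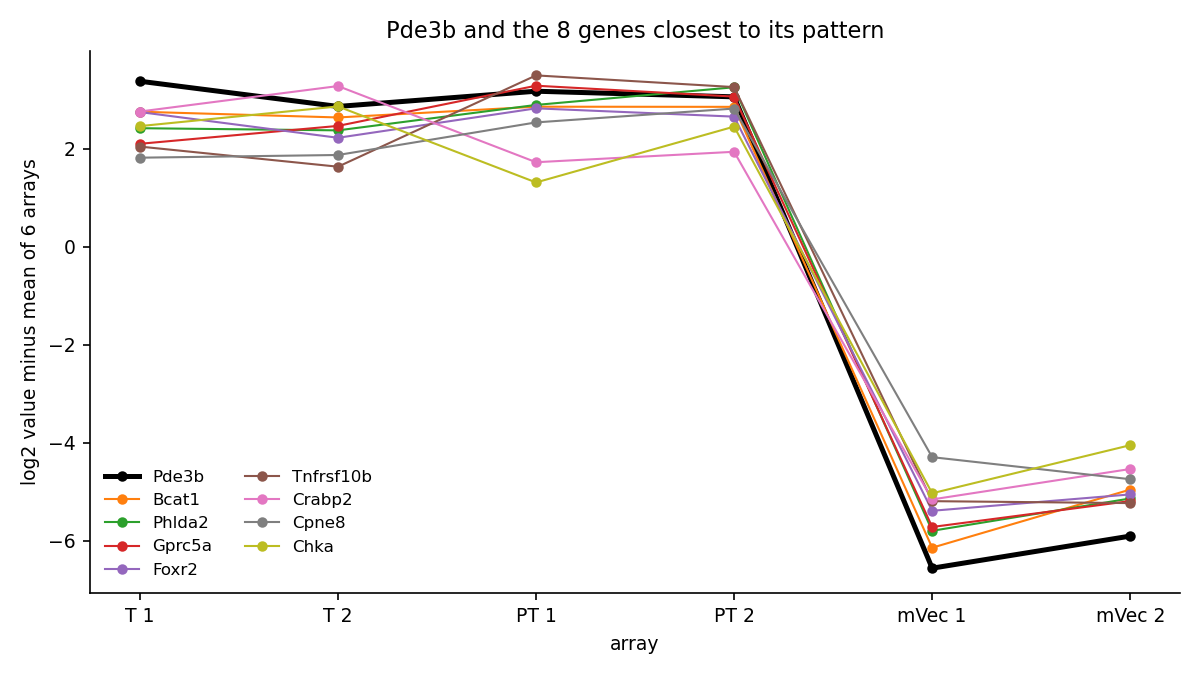
Log2 expression value minus the gene's mean over the 6 arrays for Pde3b and the 8 genes closest to it, by array (T, PT and mVec, 2 arrays each); lines only join the values of a gene, and the arrays have no order. All 9 genes are high on the 4 Kit-labelled arrays and low on both mVec arrays, and Tnfrsf10b and Crabp2 are those that differ between T and PT by more than 1 log2 unit.

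Genes next to Pde3b on its chromosome did not share its values. In the RefSeq order the measured protein-coding neighbours are Spon1, Rras2, Copb1 and Psma1 on one side and Cyp2r1, Calcb and Insc on the other, 7 measured genes. In T minus mVec, 0 of the 7 were called higher and 1 was called lower, and their differences ran from -3.20 to 0.49. The lower one was Insc, an adaptor for spindle orientation, with 4.68 and 4.51 on T arrays, 4.31 and 4.28 on PT arrays, and 7.60 and 8.001 on mVec arrays, at background throughout. In PT minus mVec, Rras2, a Ras-related GTPase, was higher by 1.10 ± 0.24 (SE, limma adjusted p = 0.00486), a call lost without mVec replicate 1 (highest limma adjusted p = 0.0561). Psma1, a proteasome subunit, was higher by 0.71 ± 0.20 (limma adjusted p = 0.0179), which was lost in 4 of 13 alternatives. Insc was lower by 3.50 ± 0.22. Cyp2r1, the vitamin D 25-hydroxylase next to Pde3b, lay between 3.92 and 4.34 on all 6 arrays, at background.

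**Figure D4:**
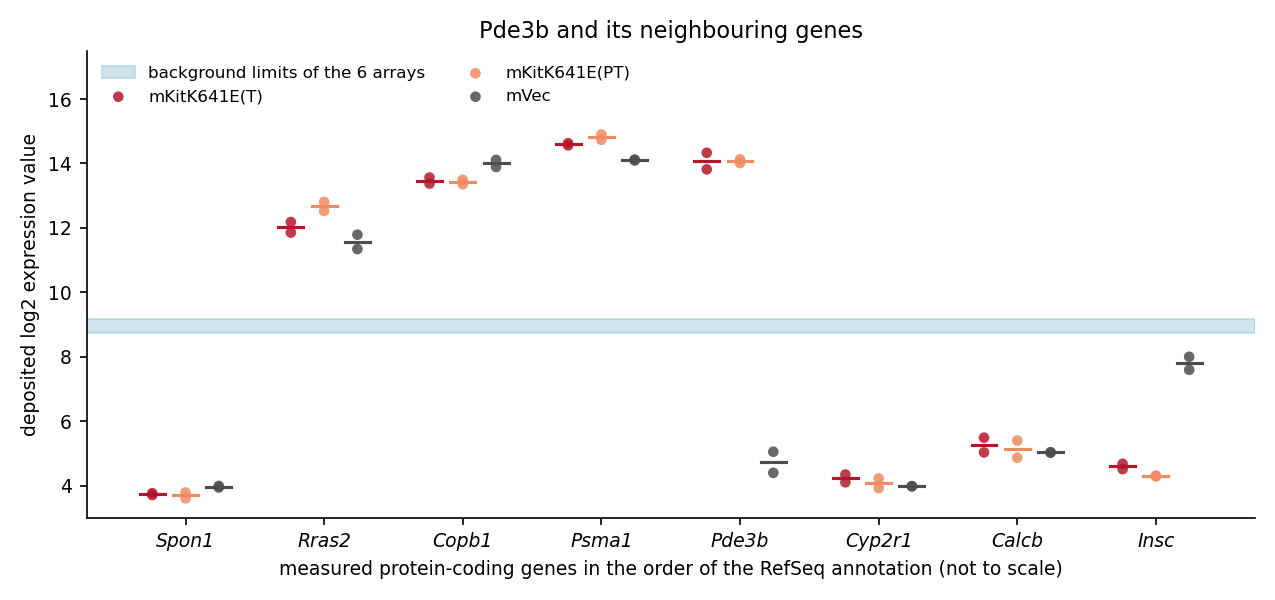
Log2 expression value on each array for Pde3b and its 7 measured neighbours in RefSeq order (T, PT and mVec, 2 arrays each; the band spans the background limits). Pde3b is the gene whose Kit-labelled arrays and mVec arrays lie on opposite sides of the band, while Copb1, Psma1 and Rras2 are above it on all 6 arrays and Insc is below it.

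The other genes of the pathway were taken in 10 lists, from the enzymes that make cAMP to the genes it induces, with 105 of 115 genes measured. In T minus mVec 16 were called higher (15.2%) and 31 lower (29.5%), where the shares over all probe sets were 16.9% and 15.5%. In PT minus mVec 18 were called higher (17.1%) and 36 lower (34.3%), where they were 17.9% and 18%. The genes that cAMP induces gave 10 of the lower calls in each line. The counts of each list below are set beside these shares as a description only. The lists were chosen with earlier results of these data known, so an excess over the shares is not a test. Among 14 other phosphodiesterases, chiefly those of cGMP or of both nucleotides, 13 were at background in all 3 groups. There 1 was called higher and 3 lower in T, and 0 higher and 4 lower in PT. The gene above the limit was Pde6d, a prenyl-binding chaperone named after the photoreceptor enzyme. Pde6d had 8.53 and 8.97 on T arrays, 8.21 and 8.76 on PT arrays, and 9.60 and 10.11 on mVec arrays, with differences of -1.10 ± 0.28 in T (SE, limma adjusted p = 0.0122, highest 0.108 over 13 alternatives, lost without T replicate 1 or mVec replicate 2) and -1.37 ± 0.28 in PT (limma adjusted p = 0.00317).

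Of 10 adenylyl cyclases, 8 were at background in all groups, and 1 was called higher in each Kit-labelled line. This was Adcy3, the cyclase known from olfactory neurons and fat cells, which had 10.25 and 10.74 on T arrays, 9.90 and 10.32 on PT arrays, and 6.56 and 6.40 on mVec arrays. In T its level was at least 2.82-fold above the mVec background limit (log2 difference 4.02 ± 0.25, limma adjusted p = 1.67e-06) and in PT at least 2.16-fold above it (3.63 ± 0.25, limma adjusted p = 2.1e-06). No other cyclase was called higher in either line. Called lower were 2 cyclases in T and 3 in PT; Adcy2 and Adcy7 were at background, and the calls of Adcy2 in both lines, Adcy7 in T and Adcy6 in PT were each lost without at least 1 array.

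Among 7 G protein alpha subunits, 0 were called higher, and 4 were called lower in T and 3 in PT, with a median difference of -0.70 in T and -0.66 in PT. Gnai1, Gnai2 and Gnao1, called lower in both lines, encode subunits of the Gi and Go class, whose Gi members lower cyclase activity. To this class 5 of the 7 listed genes belong. Gnai3, a further gene of that class, was not called, with 13.73 and 13.72 on T arrays, 13.46 and 13.59 on PT arrays, and 13.42 and 13.46 on mVec arrays (limma adjusted p = 0.336 in T and 0.794 in PT). Gnai1 had 5.91 and 5.46 on T arrays, 5.58 and 5.04 on PT arrays, and 11.55 and 11.52 on mVec arrays, so the mVec level was at least 6.51-fold above the T background limit and at least 5.75-fold above that of PT (log2 differences of -5.85 in T and -6.22 in PT, limma adjusted p = 2.15e-07 in T and 9.61e-08 in PT). Gnao1 fell by 3.18 ± 0.25 in T (9.07-fold) and by 4.52 ± 0.25 in PT (22.9-fold), and the difference of Gnai2 was -2.01 ± 0.22 in T (4.02-fold lower) and -2.62 ± 0.22 in PT (6.16-fold lower); the highest limma adjusted p among these 4 differences was 7e-05. Gnaz, the fourth gene called in T, was at background and its call was lost in 6 of 11 alternatives. Gnas, the stimulatory subunit, had 14.51 and 14.95 on T arrays, 14.16 and 14.57 on PT arrays, and 14.94 and 15.11 on mVec arrays and was not called (limma adjusted p = 0.426 in T and 0.0607 in PT). Of 10 measured receptors coupled to Gs, 9 were at background in all groups, among them Mc1r at 4.99 to 5.21 over the 6 arrays.

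Of 9 genes for protein kinase A subunits and inhibitors, 2 were called higher and 1 lower in T, and 3 higher and 4 lower in PT. The regulatory subunits moved in different directions. Prkar2b, the type II beta subunit, had 10.58 and 10.47 on T arrays, 9.73 and 10.39 on PT arrays, and 14.40 and 14.28 on mVec arrays; it was 14.1-fold lower in T and 19.5-fold lower in PT (log2 differences of -3.82 ± 0.25 in T and -4.29 ± 0.25 in PT, limma adjusted p = 2.38e-06 in T and 7.98e-07 in PT). Prkar2a, the type II alpha subunit, had 11.13 and 11.11 on T arrays, 11.95 and 11.77 on PT arrays, and 9.47 and 9.18 on mVec arrays. It was 3.47-fold higher in T and 5.81-fold higher in PT (1.80 ± 0.21 in T and 2.54 ± 0.21 in PT, limma adjusted p = 0.000103 in T and 7.24e-06 in PT). Prkar1b also rose, to 9.46 and 9.56 on T arrays and 9.66 and 9.74 on PT arrays, against 7.32 and 7.84 on mVec arrays (limma adjusted p = 0.000117 in T and 4.64e-05 in PT). Of the 7 PT calls, those of Prkar1a, Prkaca, Pkia and Pkig were each lost without at least 1 array.

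Of 12 measured kinase anchoring proteins, which hold protein kinase A and often phosphodiesterases at one place, 4 (33.3%) were called higher and 3 (25%) lower in each Kit-labelled line, against 16.9% and 15.5% of all probe sets in T and 17.9% and 18% in PT. The T call of Akap9 was lost without T replicate 1 or mVec replicate 1 (highest limma adjusted p = 0.0711), and the PT call of Akap10 without any of the 4 arrays compared (highest 0.196). Akap8 was 4.54-fold higher in T and 2.38-fold higher in PT, and Akap1, which anchors at mitochondria, 3.17-fold higher in each. Akap7 was 3.19-fold lower in T and 5.81-fold lower in PT. Akap13 had 7.93 and 7.11 on T arrays, 6.27 and 6.63 on PT arrays, and 10.33 and 10.07 on mVec arrays. Limma adjusted p was at most 0.00171 for these 4 genes. Akap12 was called lower as well, at background in all groups.

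Among 8 measured genes for other effectors and export of cAMP, 3 were called higher and 1 lower in T, and 4 higher and 1 lower in PT. Bves, called higher in both lines, was at background on all 6 arrays. The T call of Rap1a (higher) was lost without mVec replicate 1 or mVec replicate 2. Abcc4, a membrane transporter that carries cAMP out of cells, had 14.07 and 13.99 on T arrays, 13.54 and 13.41 on PT arrays, and 9.69 and 9.42 on mVec arrays. It was 22.2-fold higher in T and 15.1-fold higher in PT (log2 differences of 4.47 ± 0.21 in T and 3.92 ± 0.21 in PT, limma adjusted p = 3.11e-07 in T and 4.56e-07 in PT). The gene called lower was Rapgef3, which encodes EPAC1, with 6.07 and 6.42 on T arrays, 5.17 and 5.85 on PT arrays, and 9.91 and 10.38 on mVec arrays. Its mVec level was at least 2.48-fold above the T background limit and at least 2.19-fold above that of PT.

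Of 10 measured genes of the CREB family, its coactivators and the SIK kinases that restrain them, 1 was called higher and 3 lower in T, and 2 higher and 3 lower in PT. Atf1, a CREB family factor, had 12.98 and 12.30 on T arrays, 12.89 and 13.08 on PT arrays, and 10.33 and 10.05 on mVec arrays, 5.46-fold higher in T and 6.95-fold higher in PT (limma adjusted p = 5.86e-05 in T and 1.71e-05 in PT). The coactivator Crtc1 was 4.73-fold lower in T and 3.46-fold lower in PT (limma adjusted p = 4.4e-05 in T and 0.000154 in PT). The PT calls of Creb1 (higher) and Sik3 (lower) were each lost without any of the 4 arrays compared.

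Of 13 measured genes that cAMP induces, 10 were called lower and 2 higher in T, and 10 lower and 2 higher in PT. At background in both groups compared were 3 of these calls in T, of Nr4a3, Ppargc1a and Rgs2. In PT there were 4, of the same genes and Mitf. The median difference of the 13 genes was -1.94 in T and -1.92 in PT, against 0.01 and 0.08 over all probe sets. Many of these are immediate early genes, which serum, growth factors and stress induce too. Fos had 7.69 and 7.69 on T arrays, 6.85 and 7.23 on PT arrays, and 14.02 and 14.33 on mVec arrays, so that the mVec level was at least 40.6-fold above the T background limit and at least 35.9-fold above that of PT (limma adjusted p = 6.77e-08 in T and 2.39e-08 in PT). Nr4a1, an orphan nuclear receptor, had 6.61 and 6.38 on T arrays, 6.74 and 6.56 on PT arrays, and 12.30 and 12.48 on mVec arrays. Dusp1, a phosphatase of MAP kinases, stayed well above background everywhere, with 12.99 and 12.80 on T arrays, 13.22 and 12.78 on PT arrays, and 15.68 and 15.57 on mVec arrays, 6.63-fold lower in T and 6.17-fold lower in PT (limma adjusted p = 1.03e-05 in T and 9.35e-06 in PT). The 2 genes called higher were Per1, a clock gene (0.71 in T and 0.86 in PT), and Mitf (1.03 in T and 0.84 in PT). Mitf was at background on both PT arrays and both mVec arrays. Its T level was at least 1.04-fold above the mVec background limit. Mitf was called in T in every alternative, whereas its PT call was lost without PT replicate 1 or mVec replicate 1. The calls of Per1 were lost in 3 of 13 alternatives in T and 2 of 13 in PT, all of them leaving out an array. Per1 and Mitf were named after their values were seen.

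The promoters of all 13 measured induced genes were searched for the same core. It was present in 14 of their 16 RefSeq windows, in at least 1 window of every gene, and the full palindrome in 1 window each of Dusp1, Btg2 and Mitf. The single windows of Nr4a1, Nr4a2 and Nr4a3 had 4 cores each, that of Dusp1 3 and that of Fos 2, whereas 2 of the 3 windows of Mitf had 0. In Dusp1, 2 of the 3 cores are the 2 strands of its palindrome. The windows of Adcy3, Abcc4 and Gnai1, which are not induced genes, had 0 as well. The induced genes were picked as cAMP targets, so cores in them are a description only, and Pck1, Per1 and Mitf hold them without being lower. The stretches of Fos (chr12:85473741-85473848, plus strand) and Dusp1 (chr17:26508588-26508683, minus strand) are printed as the sites beside which the phosphodiesterase windows above can be read, with cores in capitals and, in Dusp1, the full palindrome.
Fos: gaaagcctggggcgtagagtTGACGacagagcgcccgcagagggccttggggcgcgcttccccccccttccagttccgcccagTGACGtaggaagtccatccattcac
Dusp1: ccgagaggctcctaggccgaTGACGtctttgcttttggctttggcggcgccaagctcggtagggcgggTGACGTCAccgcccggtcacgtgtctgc

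PDE3B is activated through insulin receptor substrates, PI3K and AKT in fat cells, and of 12 measured genes of this arm 1 was called higher and 3 lower in T, and 1 higher and 4 lower in PT. The share called higher (8.33%) was below that of all probe sets and the share called lower (25% in T and 33.3% in PT) above it, on few genes, and the PT call of Akt2 (lower) was lost without PT replicate 1 or mVec replicate 1. Pik3r1, the main regulatory subunit of PI3K, had 11.70 and 11.71 on T arrays, 10.65 and 10.34 on PT arrays, and 14.31 and 14.43 on mVec arrays; it was 6.35-fold lower in T and 14.7-fold lower in PT (limma adjusted p = 7.34e-06 in T and 5.01e-07 in PT). Irs1 had 8.19 and 8.60 on T arrays, 9.20 and 9.10 on PT arrays, and 11.02 and 10.97 on mVec arrays. The catalytic subunit Pik3cb was 3.11-fold higher in T and 3.25-fold higher in PT. Akt1 lay between 13.78 and 14.23 on all 6 arrays, with a difference of 0.00 ± 0.24 in T and -0.01 ± 0.24 in PT. As for the tissue in which PDE3B is best known, 0 of 8 adipocyte markers were above background on both arrays of T or of PT, and 2 (Fabp4 and Lipe) were in mVec. Adipoq, Plin1 and Lep were at background on all 6 arrays, and the summed log2 level of the adipocyte list was 35.0 to 36.2 in T, 36.3 to 37.0 in PT and 44.8 to 46.2 in mVec.

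**Figure D5:**
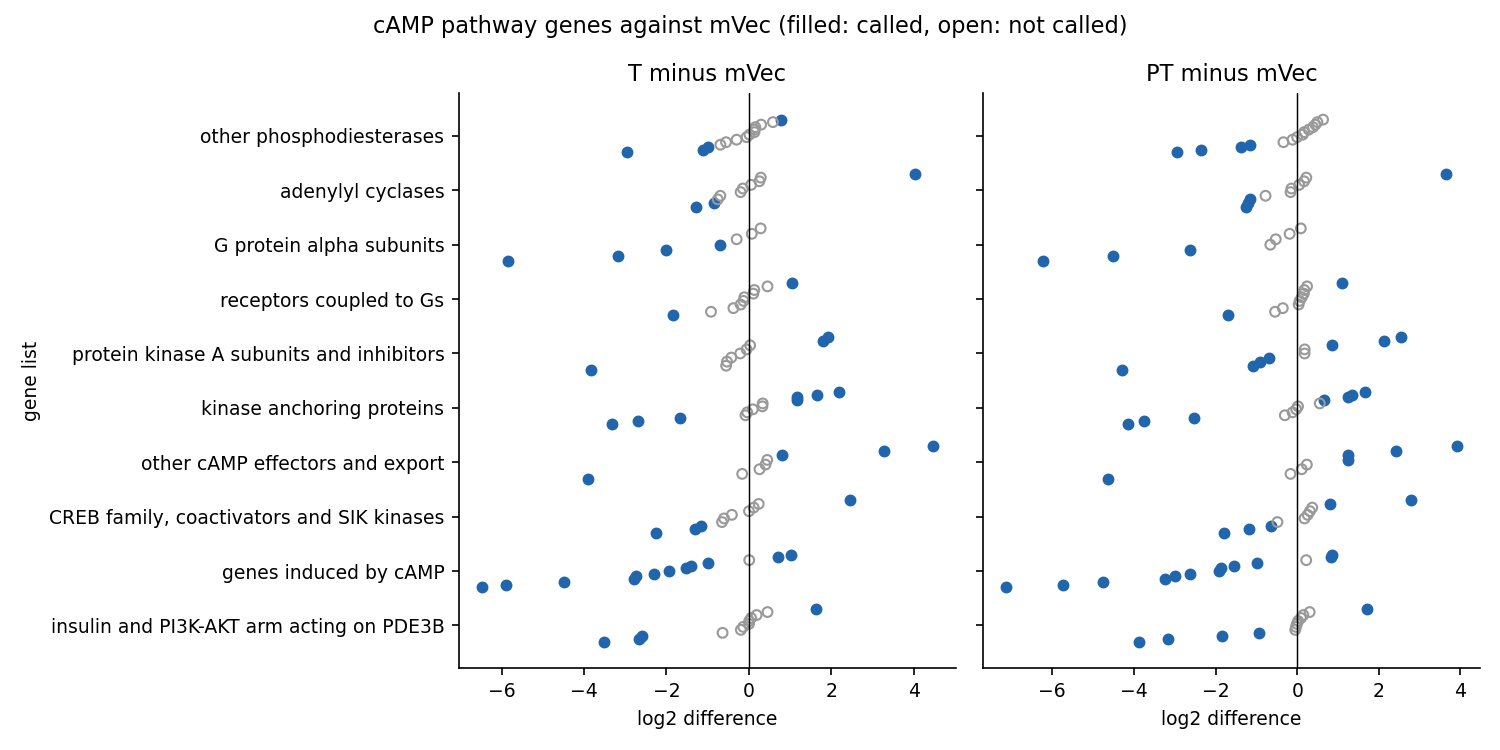
Log2 difference of each measured gene of the 10 pathway lists for T minus mVec and PT minus mVec, with 1 row a list and points shifted up or down only to be visible; filled points passed an adjusted p of 0.05 in limma's test and open points did not. The genes induced by cAMP lie mostly below 0, with 10 of 13 called lower in each Kit-labelled line. Of those 10, Nr4a3, Ppargc1a and Rgs2 were at background on all 6 arrays. The G protein alpha subunits have 0 called higher, with 4 of 7 called lower in T and 3 of 7 in PT.

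Between the Kit-labelled lines, 6 of the 105 pathway genes were called higher in T than in PT (5.71%) and 2 lower (1.90%), shares close to the 5.67% and 2.7% of all probe sets. Leaving out each array in turn gave 2 to 4 higher and 0 to 1 lower, with the lowest counts without PT replicate 1. Fitting only probe sets above background gave 10 higher and 7 lower, and only those above the median mean 9 higher and 6 lower, so the number of such genes depends on the fit. Calcrl, the receptor for calcitonin gene-related peptide, was called higher in T than in PT in every alternative (T minus PT 1.60, highest limma adjusted p = 0.0462). Gnao1 (1.33, limma adjusted p = 0.0126) was lost without T replicate 1, T replicate 2 or PT replicate 1, where its limma adjusted p reached 0.0918, and Pik3r1 (1.21, limma adjusted p = 0.00868) without T replicate 2 or PT replicate 2, where it reached 0.0625. Leukocyte, endothelial and muscle markers gave 0 genes above background on both arrays of T or of PT out of 4, 5 and 7 measured, and in mVec 1 endothelial gene, Cdh5, passed.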

How the data were processed

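Per the labels' protocols, total RNA was taken with RNeasy columns, biotin-labelled and run on Clariom S arrays at a core facility. The deposited file holds 1 value per probe set and array, which the authors gave on what its range shows to be a log2 scale; the software and normalization behind it are not stated in the labels, and the precision is limited by the number of arrays (6). Probe sets were named through GEO's platform annotation (19572 of 22206 gene probe sets had 1 symbol, 2634 none), and the probe set with the highest mean was used where a symbol had several. Differences were fitted with limma 3.58.1 in R 4.3.3 (lmFit and eBayes, 3 group means, 3 residual degrees of freedom, two-sided moderated test), Benjamini-Hochberg adjusted over 22206 probe sets, and called at an adjusted p under 0.05. The fit was tested on simulated data. A fold against a group with no array above its background limit is a bound against that limit. The members and gene lists were chosen with earlier results of these data known. Named pathway genes were up to 4 per list and comparison with the largest called difference, plus genes named for their role (Gnas, Gnai3, Mc1r, Akt1, Akap1, Dusp1, Cyp2r1) or to spell out a count. Replicate numbers were not treated as pairs. Sequences are RefSeq's on GRCm38.p6. Alternatives covered array centring, quantile normalization, a mean-variance trend, 2 filters on low values, fits of 2 groups, a replicate block, other background limits and leaving out each array.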

Additional observations from a re-analysis of the deposited data

Results flagged for a closer look

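Pde4b differed between the Kit-labelled lines, which no other measured cAMP phosphodiesterase did by the same test. T minus PT was -1.49 on the log2 scale, with 10.92 and 10.88 on T arrays and 12.43 and 12.34 on PT arrays, and limma's test of this difference gave an adjusted p of 0.00407. Both T arrays were lower than both PT arrays.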

How the results depend on the processing

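Over the 9 measured genes and 13 alternatives, 271 tested values kept their direction and side of the threshold, 13 kept their direction and lost the call, and 17 changed sign, all 17 of them differences that were not called. Pde3b minus mVec, which has no test, kept its direction in all 26 values and ran from 9.02 to 9.68 in T and from 9.02 to 9.67 in PT. Leaving out each array in turn gave 0 to 2 genes other than Pde3b called higher in T minus mVec. Among probe sets above background, 1 gene other than Pde3b was called lower in T minus mVec and 1 in PT minus mVec, since that filter leaves out Pde4a and Pde7b. Sign changes with centred arrays were Pde4c in T minus mVec (0.11, and 0.0651 after quantile normalization), Pde8b in PT minus mVec (0.0656) and Pde3b in T minus PT (-0.000298). Leaving out each array in turn gave, for T minus mVec, -0.27 to 0.30 for Pde3a and -0.37 to 0.23 for Pde4c; for PT minus mVec, -0.0752 to 0.41 for Pde3a and -0.25 to 0.00370 for Pde8b; and for T minus PT, -0.44 to 0.13 for Pde3a, -0.25 to 0.26 for Pde3b and -0.13 to 0.0894 for Pde8a. The cause of these changes was not tested. With a replicate block, T minus PT of Pde4b was -1.49 (limma adjusted p = 0.00727) and the block changed no call among the 9 genes. Same-numbered arrays of 2 groups correlated at 0.0396 to 0.0823 in their deviations, so little deviation was shared by number. Whether same-numbered arrays were handled together is not stated in the labels, and these correlations cannot tell. Over all probe sets, calls in T minus PT (1258 higher and 599 lower) moved to 1587 and 950 with a mean-variance trend, 1028 and 720 after quantile normalization and, leaving out each array, to as few as 370 higher (without PT replicate 1) and 176 lower (without PT replicate 2). A background limit at the 90th percentile put 4 genes above it on both mVec arrays, and at the 99th percentile 1 gene in T, 1 in PT and 0 in mVec. Groups of 2 arrays limit all of this, and for genes at background no fold can be given.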
